A study of Mus musculus with 63 samples.

Results

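Genes of the gastric gland were measured in tumours of the mouse small intestine. The set comprised 8 genes of the 24766 in the deposited table: *A4gnt*, *Muc6*, *Tff2*, *Tff1*, *Muc5ac*, *Cldn18*, *Gkn3* and *Aqp5*. The set was chosen by a measured value, the difference of *A4gnt* between the major and minor clones of these tumours, with genes of the same gland added to it, so the values of that contrast are given as a description with no test. Of the 8 genes, 7 were found by their symbol. *Muc6* stands in the table under the scaffold name LXEJ02004842.1 and was found by its identifier, ENSMUSG00000118661, which Gencode M39 names *Muc6*.

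The tumours came from 2 *Apchet* mice on a C57BL/6 background, 1 female and 1 male, so that sex and animal cannot be told apart. All carried *Villin-creERT2*, 1 floxed *Apc* allele (*Apc fl/+*) and 1 *R26R-Confetti* allele. Cre under the *Villin* promoter acts in the intestinal epithelium, and tamoxifen (4 mg, at an age of at least 8 weeks) therefore removed 1 *Apc* copy across that tissue and marked scattered crypts with a fluorescent colour. The mutagen *N*-ethyl-*N*-nitrosourea (ENU, 200 mg per kg) was given 10 days afterwards to both animals. There was no untreated mouse, normal intestine or stomach among the libraries. In 20 tumours made of differently coloured clones, 10 per mouse, the major clone and the minor clone were dissected and sequenced apart, giving 40 libraries. The other 23 libraries were undivided tumours, 10 of the female and 13 of the male mouse. The series text counts 20 monoclonal tumours, and undivided tumours 15, 17 and 18 of the male mouse fall outside the numbering of the rest. Libraries were labelled by part of the small intestine as SI10, SI20 or SI30, and SI30 was held by tumours 29 and 30 of the female mouse alone. Each library is bulk tissue, in which fewer cells of a type and less RNA per cell cannot be told apart.

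Levels are normalised counts, that is, reads per gene estimated by Salmon and then scaled between libraries by the authors. These sum to between 26140227 and 45909885 per library, and the number of reads behind a value is unknown. *Rn18s*, a ribosomal RNA gene, held between 0.555% and 19.3% of a library's normalised counts and is set beside the results below. The labelled tissue was checked against intestinal epithelial genes, and the lowest library held 14077 normalised counts of *Vil1*, 31001 of *Epcam*, 1268 of *Cdx2* and 10492 of *Hnf4a*. Separate tumours of 1 animal per sex are the replicates, so p-values measure the spread between tumours and not between animals.

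In the stomach, mucus comes from 2 kinds of cell. Surface (pit) cells secrete the mucin *Muc5ac* with the trefoil peptide *Tff1*, while mucous cells of the neck and the pyloric gland secrete the mucin *Muc6* with the trefoil peptide *Tff2*. *A4gnt* encodes the Golgi transferase that caps the O-glycans of gland mucin with alpha-linked N-acetylglucosamine, and *Gkn3* encodes a gastrokine secreted by mucous cells. *Aqp5* encodes a water channel found in pyloric gland cells, and *Cldn18* encodes the tight junction claudin of gastric epithelium. Gland-type mucous cells are also known to appear in the intestine during chronic injury, as pyloric metaplasia. In the normal duodenum, Brunner's glands make *Muc6* and *Tff2*.

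The 8 genes lie at 5 places in the genome (GRCm39, Gencode M39). *A4gnt* (chromosome 9, 99494555 to 99504420, + strand) and *Cldn18* (chromosome 9, 99571514 to 99599320, - strand) are separated by 67093 bases. *Muc6* (chromosome 7, 141213373 to 141241641, - strand) and *Muc5ac* (chromosome 7, 141342709 to 141372968, + strand) belong to one cluster of secreted mucins, with *Muc2* between them. *Tff2* (chromosome 17, 31360023 to 31363262, - strand) and *Tff1* (chromosome 17, 31380369 to 31384251, - strand) stand 17106 bases apart. *Gkn3* (chromosome 6, 87360238 to 87365917, - strand) and *Aqp5* (chromosome 15, 99488532 to 99492710, + strand) complete the set. All 8 are protein-coding.

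Promoter sequence was at hand for 5 of the 8 genes (RefSeq, GRCm38.p6, 250 bases upstream of an annotated start). The windows of *A4gnt* (chr9:99612252-99612501, + strand), *Muc6* (chr7:141655394-141655643, - strand) and the upstream start of *Cldn18* (chr9:99717268-99717517, - strand) are shown because each holds the letters AGATAA, bound by GATA factors, or their reverse complement TTATCT. Capitals mark these letters, and each sequence runs 5′ to 3′ on the gene's strand.
A4gnt: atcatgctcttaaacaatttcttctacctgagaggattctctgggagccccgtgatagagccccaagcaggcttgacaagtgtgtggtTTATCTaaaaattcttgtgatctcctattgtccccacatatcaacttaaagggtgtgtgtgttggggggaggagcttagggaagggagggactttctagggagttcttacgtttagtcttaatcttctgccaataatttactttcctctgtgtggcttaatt
Muc6: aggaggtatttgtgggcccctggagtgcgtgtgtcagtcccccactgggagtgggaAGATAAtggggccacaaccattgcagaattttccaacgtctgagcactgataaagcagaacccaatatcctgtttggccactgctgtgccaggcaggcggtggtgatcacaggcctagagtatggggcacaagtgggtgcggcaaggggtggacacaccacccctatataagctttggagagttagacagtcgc
Cldn18: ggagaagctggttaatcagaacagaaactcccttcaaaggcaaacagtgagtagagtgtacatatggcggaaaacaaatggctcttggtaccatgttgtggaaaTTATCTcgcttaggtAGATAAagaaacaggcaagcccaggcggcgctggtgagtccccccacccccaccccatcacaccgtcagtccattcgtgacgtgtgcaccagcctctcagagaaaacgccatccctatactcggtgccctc
Either form of AGATAA was held by 9.99% of 32851 RefSeq promoter windows of the same length (3281 windows). *A4gnt* and *Muc6* held 1 copy each and *Cldn18* held 2 that did not overlap, whereas no copy stood in the windows of *Gkn3*, *Aqp5* and the second start of *Cldn18*. Neither TGTTTAC (FOXA), TTTATG (CDX) nor TATAAA, in either orientation, was present in any of the 6 windows, which says only that those letters are not there. They were held by 3.17%, 10.8% and 12.4% of the 32851 windows, respectively, so that most windows lack each of them. The AGATAA matches are a description of the windows and not bound sites. The GATA factor genes were present throughout, *Gata4* at a median of 5146 normalised counts (2012 to 8169) and *Gata6* at a median of 2417 (1423 to 3328).

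Expression of the set was widespread. At a level of at least 10 normalised counts, all 8 genes were found together in 46 of 63 libraries, at least 4 of them in 62, and at least 3 in all 63. *Gkn3* was at or above this level in 63 libraries, *Muc6* in 62, *Muc5ac* and *Cldn18* in 60, *Tff2* in 59, *Tff1* in 55, and *A4gnt* and *Aqp5* in 53. All 8 genes were present in 18 of 20 major clones, 18 of 20 minor clones and 10 of 23 undivided tumours. A level of at least 1 normalised count was met by all 8 genes in 53 libraries, and a level of at least 50 in 24.

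*Muc6* ranged from 4.39 normalised counts in the major clone of male tumour 19 to 39076 in undivided male tumour 7, with a median of 5357. *Gkn3* ranged from 161 to 24984 with a median of 5493, and was the gene whose lowest library stood highest above 0. *Muc5ac* ranged from a listed 0 to 6295 (median 978), *Cldn18* from a listed 0 to 7322 (median 294) and *Aqp5* from a listed 0 to 3619 (median 426). *Tff2* ranged from 6.57 to 2280 (median 111). *Tff1* had the greatest span, from a listed 0 in undivided male tumours 15, 17 and 18 to 42634 in the minor clone of male tumour 28 (median 231). *A4gnt* was listed at 0 in 4 libraries and reached 977 in undivided male tumour 7 (median 45.8). The set was among the more variable parts of the transcriptome. Across the 23 undivided tumours the SD of log2(value + 1) was 2.16 for *Gkn3*, 2.30 for *Muc6*, 2.55 for *A4gnt*, 4.10 for *Aqp5* and 4.12 for *Tff1*, against a median of 0.51 over 16511 genes.

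**Figure D1:**
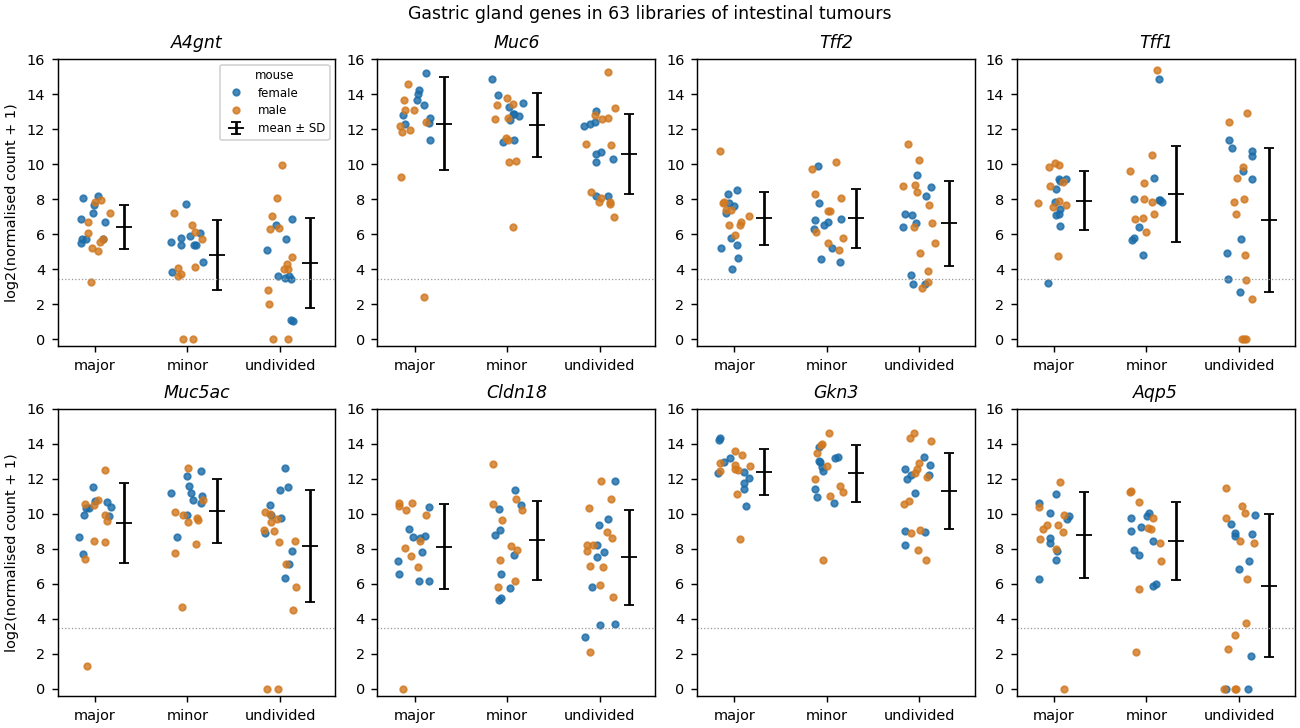
Each point is 1 library, plotted as log2(normalised count + 1) for the 20 major clones, 20 minor clones and 23 undivided tumours and coloured by mouse; black bars give the mean and SD of each class, and the dotted line marks 10 normalised counts. Undivided tumours spread down to 0 for *A4gnt*, *Tff1*, *Muc5ac* and *Aqp5*, and 2 minor clones stand far above the rest for *Tff1*.

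Other gastric genes from lists of known markers gave a mixed picture. Of 12 pit cell genes, *Ctse* (a pepsin-like protease) was at a median of 22916 normalised counts, *Anxa10* at 5628, *Gkn1* at 1508 and *Vsig1* at 463. Of the gland mucous list, *Pgc* (the pepsinogen shared by mucous neck and chief cells) was at a median of 605. *Fut2* was at 2787, *Cftr* at 2714 and *Glipr1* at 394, while the gland mucin *Muc5b* was at 2.45 and reached 10 normalised counts in 9 libraries. Genes of chief cells were low in part, with *Pga5* at a median of 1.10 and *Cblif* at 3.32, although *Clps* was at 587, *Lipf* at 158 and *Bhlha15* at 117. Among parietal cell genes *Kcne2* and *Slc26a7* had a median of 0 and *Atp4b* of 6.29, against 536 for *Atp4a* and 288 for *Slc26a9*. The stomach transcription factor genes *Sox2*, *Nkx6-3* and *Barx1* had a median of 0 and reached 10 normalised counts in 3, 4 and 5 of 63 libraries, respectively. *Gata4*, *Gata6*, *Klf5*, *Foxq1* and *Onecut2* were present in all 63.

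Between the clones of a tumour, the difference of *A4gnt* is the value that chose the set and is described here without a test. *A4gnt* lay between 8.62 and 286 normalised counts in major clones (median 83.6) and between a listed 0 and 214 in minor clones (median 41.3), with much overlap between the classes. The mean log2 difference, major minus minor, was 1.56 (SD 1.35, n = 20 tumours), and the major clone was higher in 17 of 20 tumours. It exceeded the minor clone by more than 1 on the log2 scale in 13 tumours, and in no tumour did the minor clone exceed it by that much. The female mouse gave a mean of 1.19 (SD 0.96, higher in 8 of 10) and the male mouse 1.94 (SD 1.62, higher in 9 of 10). In female tumour 28 the major clone held 272 normalised counts against 40.6 in the minor clone, and in female tumour 23 286 against 55.2. In male tumour 22 the values were 35.9 and a listed 0. The exceptions were small: 44.9 against 45.8 in female tumour 19, 201 against 214 in female tumour 27, and 32.3 against 51.8 in male tumour 23.

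The other 7 genes, added to the set beside it, had mean differences of between -0.66 and 0.34, and each of them parted the clones of single tumours in both directions. *Muc6*, the mucin that carries the *A4gnt* product, had a mean log2 difference of 0.09 (SD 1.43, higher in 11 of 20 major clones), with medians of 6706 in major and 6620 in minor clones. *Tff2* had a mean difference that rounds to 0 (SD 1.56, higher in 10), *Gkn3* one of 0.07 (SD 1.28, higher in 10) and *Aqp5* one of 0.34 (SD 1.19, higher in 12). The pit cell genes of the set had means below 0: *Tff1* at -0.38 (SD 2.23, higher in 12 major clones), *Cldn18* at -0.37 (SD 2.30, higher in 11) and *Muc5ac* at -0.66 (SD 1.65, higher in 8). Their median differences were 0.61, 0.02 and -0.42, respectively. Single tumours weighed on the means, that of *Tff1* being -0.09 without female tumour 23 and that of *Cldn18* -0.08 without male tumour 19. A fit over all genes was made with limma, with tumour as a block and calls at a Benjamini-Hochberg adjusted p under 0.05. It called 1.14% of the 16428 genes tested (188 genes), and 0.670% were called higher in major clones. None of the other 7 genes was called, and no call is given for *A4gnt*, whose difference chose the set. Of the 12 listed pit cell genes, 4 had estimates above 0 in this fit (median -0.33, none called). Of 9 gland mucous genes tested, *A4gnt* among them, 5 were above 0 (median 0.07), and of 14 pyloric metaplasia genes 11 (median 0.145, none called). Without the tumour block no gene was called. Because the set was chosen with this contrast known, nothing is read from these counts.

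*Rn18s* moved with this contrast. In 15 of the 20 tumours the major clone held less of it, and its median share was 1.24% for major and 6.19% for minor clones. In those 15 tumours the mean *A4gnt* difference was 1.63 (SD 1.49, higher in 13), and in the 5 tumours in which *Rn18s* was higher in the major clone it was 1.36 (SD 0.89, higher in 4). Over the 20 tumours the *A4gnt* difference had a Pearson r of -0.27 with the log2 difference of *Rn18s*. Genes of other intestinal cell types also moved in this contrast. Among goblet cell genes 9 of 10 had estimates above 0 (median 0.46), *Clca1* (log2 difference 0.70, SE 0.17), *Spink4* (0.63, SE 0.12) and *Creb3l1* (0.43, SE 0.10) being the 3 of 10 listed goblet genes called higher in major clones by limma (adjusted p = 0.0465, 0.0238 and 0.0388). Of 8 enteroendocrine genes tested all 8 were above 0 (median 0.68) and 3 were called higher, *Chgb* (0.89, SE 0.17, adjusted p = 0.0207), *Neurog3* (0.92, SE 0.22, adjusted p = 0.0438) and *Tph1* (0.72, SE 0.15, adjusted p = 0.0334, limma). Enterocyte genes were above 0 in 9 of 9 (median 0.44, 1 called) and Paneth cell genes in 8 of 10 (median 0.45, none called). *Gata6* was the 1 called of 7 gastric and duodenal transcription factor genes tested (0.29 higher, SE 0.04, adjusted p = 0.00573, limma). *Gata4* was at -0.07 (SE 0.09, limma adjusted p = 0.695). *Atoh1* was the 1 called of 9 intestinal transcription factor genes (0.69 higher, SE 0.13, limma adjusted p = 0.0207). Of 7 fibroblast genes 6 had estimates above 0 in major clones (median 0.69, none called). The part of *Rn18s* content and of these cell types in the *A4gnt* difference was not tested.

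**Figure D2:**
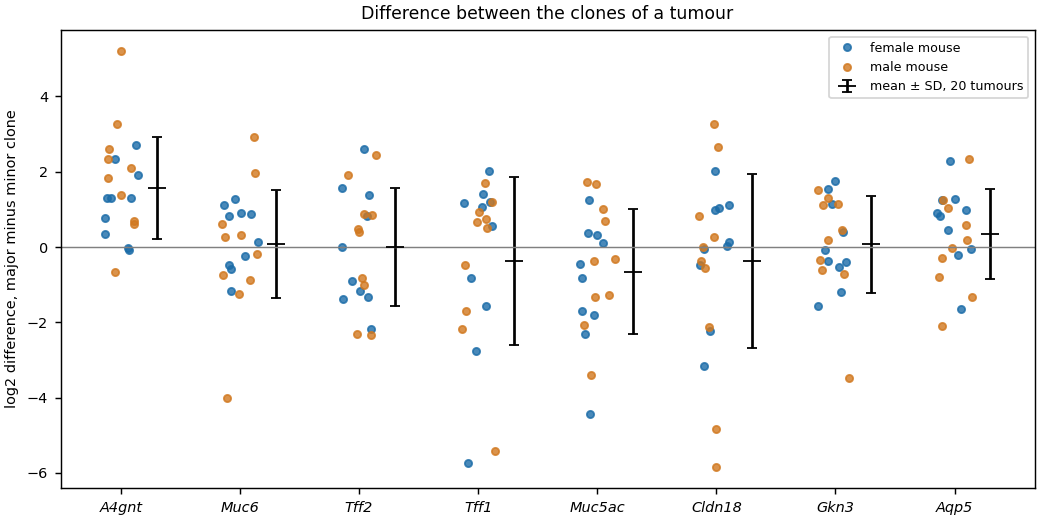
Each point is 1 tumour, plotted as the log2 difference between its major and its minor clone and coloured by mouse; black bars give the mean and SD over 20 tumours. Points for *A4gnt* lie mostly above 0 (17 of 20), while those of the other 7 genes lie on both sides of it.

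How far a level was shared by the clones of a tumour was examined next. The log2 level in the major clone was set against that in the minor clone over the 20 tumours, with permutation tests of 100000 resamples (two-sided) for 8 relations, whose p-values are not adjusted. For *A4gnt* r is a description and its p is not given, because a steady difference between paired clones, by which it was chosen, favours a high r. Pearson's r was 0.87 for *Aqp5* (p = 1e-05, the smallest that the permutations give), 0.86 for *Muc6* (p = 3e-05) and 0.75 for *A4gnt*. It was 0.70 for *Muc5ac* (p = 0.00598), 0.64 for *Gkn3* (p = 0.00598), 0.57 for *Tff1* (p = 0.0116), 0.53 for *Tff2* (p = 0.0163) and 0.52 for *Cldn18* (p = 0.0133). The median r over 16427 genes was 0.32, and 23.2% of these genes were above 0.5. The shuffles crossed mice and segments, which the clones of a tumour mostly share, so these p-values also take in differences between mice and segments. With the mean of each mouse removed and shuffles within mouse, r lay between 0.49 (*Tff2*, permutation p = 0.0326) and 0.88 (*Aqp5*, p = 1e-05). Segment was not taken into account. Spearman's rho by permutation was 0.83 for *Aqp5* (p = 3e-05), 0.66 for *Tff1* (p = 0.00218), 0.65 for *A4gnt*, 0.63 for *Muc6* (p = 0.00365), 0.59 for *Tff2* (p = 0.00722), 0.52 for *Cldn18* (p = 0.0209), 0.46 for *Gkn3* (p = 0.0423) and 0.43 for *Muc5ac* (p = 0.0595).

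Some of these relations rested on single tumours. Leaving out the 2 tumours farthest from the median of the major clones, r remained at 0.72 for *Aqp5* (permutation p = 0.00077), 0.63 for *A4gnt*, 0.56 for *Tff1* (p = 0.0118), 0.52 for *Muc6* (p = 0.0265) and 0.48 for *Tff2* (p = 0.0426). It was 0.14 for *Gkn3* (permutation p = 0.581) and 0.08 for *Muc5ac* (p = 0.742), so that the relation of these genes rests on the tumours left out. For *Cldn18* it was 0.43 (permutation p = 0.0744), against 0.52 with all tumours. Male tumour 19 was among them in 7 of the 8 genes, and without it alone r was 0.29 for both *Muc5ac* and *Gkn3*. Within the female mouse r was 0.76 for *Aqp5*, 0.74 for *Cldn18*, 0.71 for *Muc6* and 0.56 for *A4gnt*, but -0.18 for *Muc5ac*. Within the male mouse r lay between 0.46 (*Tff2*) and 0.91 (*Aqp5*).

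**Figure D3:**
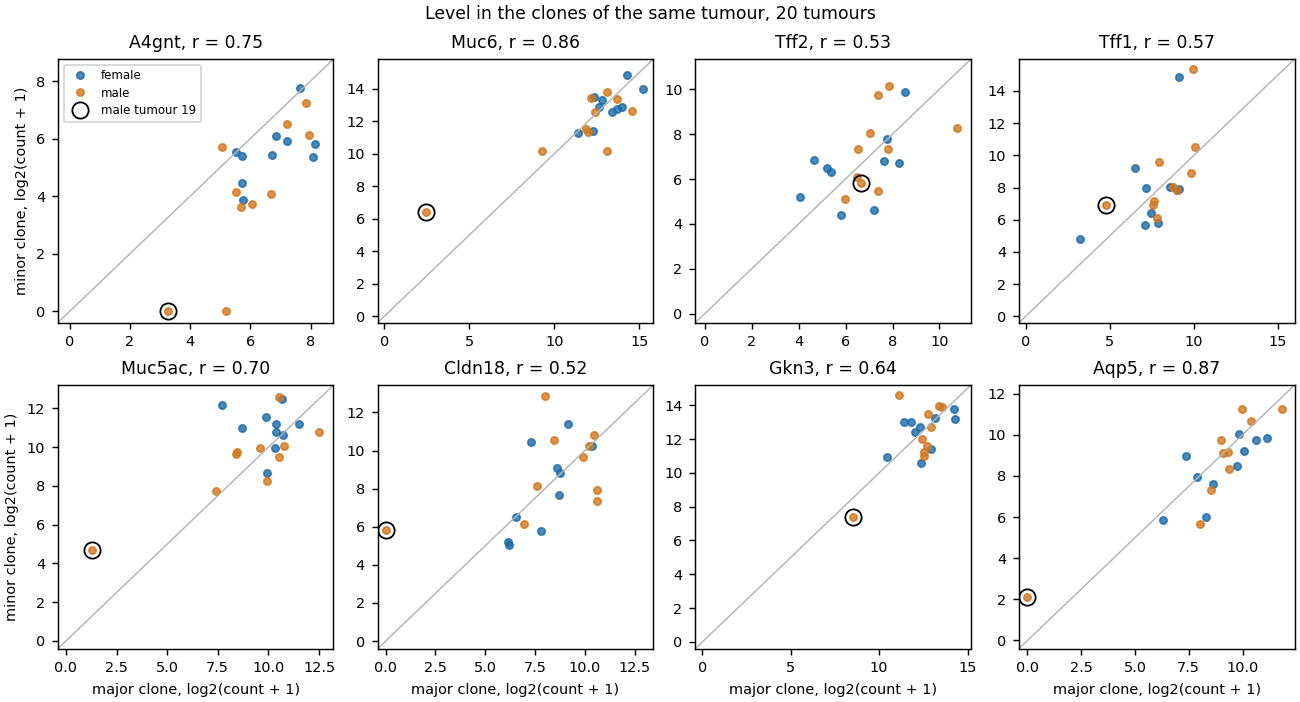
Each panel plots the minor clone against the major clone of the same tumour as log2(normalised count + 1), for 20 tumours coloured by mouse, with the line of equal levels in grey and male tumour 19 ringed. Points of *Muc6* and *Aqp5* follow the line (r = 0.86 and 0.87), points of *A4gnt* lie mostly below it, and the ringed tumour lies at the lower left for *Muc5ac* and *Gkn3*.

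Male tumour 19 was low in most of the set in both clones. Its major clone held 4.39 normalised counts of *Muc6*, 1.45 of *Muc5ac*, 8.62 of *A4gnt* and a listed 0 of *Cldn18* and *Aqp5*. Its minor clone held 85.1 of *Muc6*, 24.9 of *Muc5ac*, 3.30 of *Aqp5*, 56.5 of *Cldn18* and a listed 0 of *A4gnt*. *Tff2* was not low there, at 101 in the major and 54.9 in the minor clone. Of 12 pit cell genes, 11 in its major clone and 7 in its minor clone ranked among the 11 lowest of the 63 libraries. The low levels were not limited to gastric genes, since 5 of 10 goblet cell genes in the major and 8 of 10 in the minor clone also ranked there, with *Muc2* at 646 and *Agr2* at 747 in the minor clone, the lowest of all libraries. *Rn18s* took 8.96% of the normalised counts of the major and 14.2% of those of the minor clone, and its part was not tested.

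The opposite was seen in the minor clones of male tumour 28 and female tumour 23. *Tff1* stood at 42634 and 29871 normalised counts in these clones, the highest of all libraries, against 996 and 559 in the major clones beside them. The next highest minor clone held 1479 in the male and 603 in the female mouse. In male tumour 28 *Cldn18* was 7322 against 258, *Gkn3* 24669 against 2231 and *Tff2* 1134 against 229 (minor against major), while *Muc6* was 2941 against 3699 and *A4gnt* 16.6 against 45.2. The minor clone had the highest level of all 63 libraries for 9 of the 12 pit cell genes, among them *Gkn1* (25077), *Gkn2* (27027) and *Ctse* (61758), but not for *Muc5ac* (730). The goblet mucin *Muc2* was 4468 in it and 23988 in the major clone, *Sox2* stood at 1.62 and *Nkx6-3* was listed at 0. In female tumour 23 *Gkn1* was 13855 against 1376 and *Gkn2* 11546 against 380, and 7 of the 12 pit cell genes were among the 3 highest libraries. Its *A4gnt* (55.2 against 286) and *Muc6* (15865 against 38070.5) ran the other way, the major clone being the higher.

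The 8 genes varied together in part. Over the 23 undivided tumours the 28 pairs of genes had a median Pearson r of 0.64 (0.18 to 0.87), and 20 pairs were above 0.5. Over the 40 clones, in which the 2 clones of a tumour are not independent, the median was 0.48 (0.04 to 0.81). *Muc6* and *Aqp5* were closest in both (0.87 in undivided tumours and 0.81 in clones), followed in undivided tumours by *Gkn3* and *Aqp5* at 0.84 (0.78 in clones) and by *Tff1* and *Aqp5* at 0.83 (0.45 in clones). *A4gnt* went with *Muc6* (0.74 and 0.61) and *Aqp5* (0.63 and 0.64) more closely than with *Tff2* (0.18 and 0.06), the trefoil peptide of the same gland cells, *Muc5ac* (0.23 and 0.26) or *Cldn18* (0.27 and 0.26). These values are a description over libraries that share *Rn18s* content: in undivided tumours r with log2 *Rn18s* lay between -0.34 (*Cldn18*) and -0.74 (*Aqp5*), with -0.65 for *A4gnt* and -0.70 for *Muc6*. In clones it lay between -0.15 (*Cldn18*) and -0.55 (*A4gnt*), and the part of *Rn18s* content in the correlations was not tested.

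**Figure D4:**
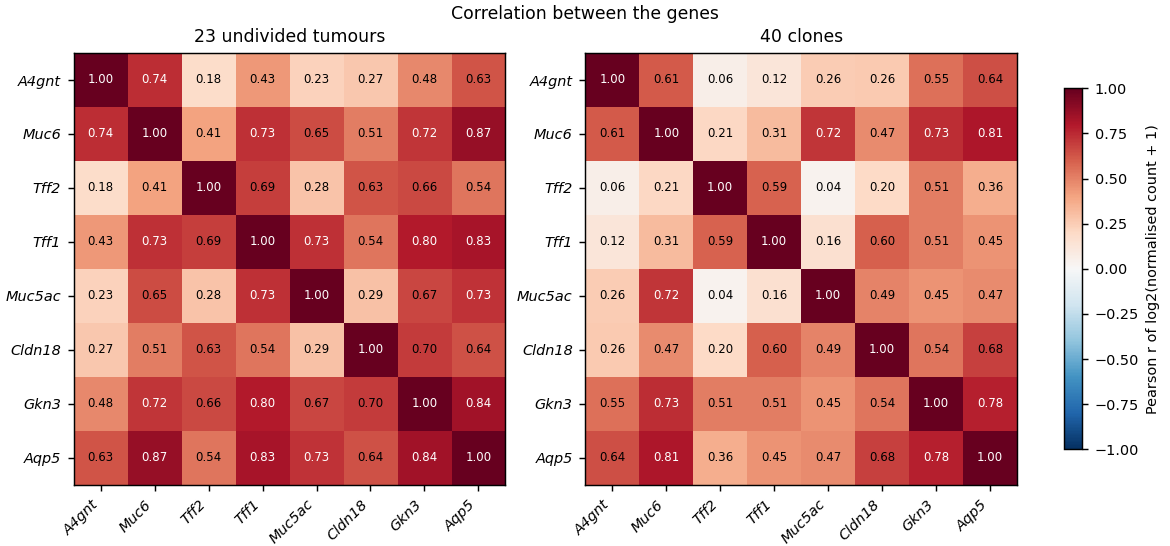
Each square gives Pearson's r between 2 genes in log2(normalised count + 1), over 23 undivided tumours on the left and 40 clones on the right, on a colour scale from -1 to 1. *Aqp5*, *Muc6* and *Gkn3* are close to one another in both sets (0.72 to 0.87 and 0.73 to 0.81), and *A4gnt* is near 0 with *Tff2* in the clones (0.06).

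Neighbours on the chromosome were compared over the 23 undivided tumours. *Dzip1l*, between *A4gnt* and *Cldn18*, had an r of 0.48 with *A4gnt* (0.56 in the clones), *Cldn18* had an r of 0.27 and *Dbr1* on the other side had an r of -0.35 at a steady level of 235 to 684 normalised counts. *Tff3*, the trefoil peptide of goblet cells beside *Tff2*, was at 2895 or above in every library and had an r of 0.09 with *Tff1*, while *Tff1* and *Tff2* had an r of 0.69. The lncRNA *Gm15318*, on the + strand across *Tff1*, was at a median of 1.37 normalised counts. *Gkn1* and *Gkn2* had an r of 0.78 and 0.72 with *Gkn3*. *Muc2*, between *Muc6* and *Muc5ac*, had an r of 0.51 with *Muc6* and 0.63 with *A4gnt*, and *Muc6* and *Muc5ac* had an r of 0.65.

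The 10 genes most like *A4gnt* over the 23 undivided tumours (highest Pearson r among 16510 genes) were *Fstl4* (0.87), *Capn6* (0.84), *Fgfr4* (0.83), *Kcnn4* (0.83), *Chit1* (0.83), *Serpina3n* (0.81), *Ern2* (0.81), *Bpifb9a* (0.81), *Cpne8* (0.81) and *Agr2* (0.81). *Kcnn4* encodes a calcium-activated potassium channel, *Ern2* a stress sensor of the endoplasmic reticulum in mucous cells, and *Agr2* a disulfide isomerase needed for mucin folding. *Agr2* ranged from 1511 to 40021 normalised counts in these tumours and *Fstl4* from a listed 0 to 355. In the 40 clones r with *A4gnt* was 0.86 for *Fstl4*, 0.84 for *Ern2* and 0.82 for *Agr2*, the 3 genes found among the 10 closest in both sets, but 0.46 for *Cpne8* and 0.55 for *Capn6*. *Muc6* ranked 46th and *Aqp5* 232nd in the undivided tumours, and *Tff2* ranked 5225th. With Spearman's rho 5 of the 10 genes were found again among the closest 10, and with the means of mouse and segment removed 6 of the 10.

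Undivided tumours were compared with divided tumours, each divided tumour being the mean of its 2 clones, with the mouse as a covariate. The comparison asks whether gastric genes went with clonal mixing. *A4gnt* had a median of 15.5 normalised counts in undivided tumours, *Muc6* one of 1640 (124 to 39076) and *Aqp5* one of 157 (a listed 0 to 2796), all overlapping the ranges of the clones. The mean log2 difference, undivided minus divided, was -2.67 for *Aqp5* (95% confidence interval -4.70 to -0.64), -1.63 for *Muc6* (-2.95 to -0.31), -1.51 for *Muc5ac* (-2.997 to -0.02), -1.25 for *A4gnt* (-2.54 to 0.05), -1.24 for *Tff1* (-3.23 to 0.74), -1.04 for *Gkn3* (-2.13 to 0.06), -0.83 for *Cldn18* (-2.27 to 0.60) and -0.35 for *Tff2* (-1.55 to 0.86). All 8 estimates were below 0, yet limma called none of the 8 at an adjusted p under 0.05 (adjusted p 0.205 to 0.828), and 3 had an unadjusted p under 0.05. Over all genes 0.121% of 16507 were called (20 genes), and the median difference was -0.01.

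Of the 12 pit cell genes 11 had estimates below 0 (median -1.15, none called), a list that shares *Muc5ac*, *Tff1* and *Cldn18* with the set. Of 9 gland mucous genes tested, 8 were below 0 (median -0.46, none called), and of 14 pyloric metaplasia genes 11 (median -0.37, none called). Both lists hold *Muc6*, *Tff2*, *Aqp5* and *Gkn3* of the set, and the gland mucous list also *A4gnt*, so these genes are counted again. The gland mucous genes outside the set were *Fut2* (-0.46), *Pgc* (-0.44), *Cftr* (-0.25) and *Glipr1* (0.03). The pyloric metaplasia genes above 0 were *Wfdc2*, *Dmbt1* and *Gpx2*, all outside the set. Fibroblast genes lay below 0 as well, in 7 of 7 (median -0.76, none called), their summed level being 433 to 11072 in undivided tumours against 1507 to 20580 in major and 1242 to 18655 in minor clones. The part of stromal content in these values was not tested, and separation into clones goes with the kind of tumour, so that dissection and clonal mixing cannot be told apart.

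Along the intestine, SI20 was set against SI10 with the mouse as a covariate, first in the undivided tumours (12 at SI10 and 11 at SI20). *A4gnt* had a median of 10.2 normalised counts at SI10 (a listed 0 to 79.8) and of 78.1 at SI20 (1.07 to 977), a mean log2 difference of 2.57 (95% confidence interval 0.73 to 4.42). *Muc6* had a median of 697 at SI10 (124 to 7067) and of 5357 at SI20 (291 to 39076), a difference of 1.94 (0.21 to 3.67). *Aqp5* had a median of 10.0 at SI10 and of 426 at SI20, a difference of 2.86 (-0.35 to 6.06). The segments overlapped for each of these genes. *Tff2* had the only estimate below 0, at -1.14 (-3.13 to 0.85). None of the 8 was called by limma (adjusted p 0.481 to 0.904), *A4gnt* and *Muc6* having unadjusted p under 0.05, where 0.170% of 16511 genes were called (28 genes). In the same fit *Rn18s* had a difference of -1.20 (-2.58 to 0.18) and the 7 fibroblast genes all had estimates above 0 (median 0.94, none called), and their part was not tested.

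In divided tumours (7 at SI10 and 10 at SI20, without the 2 SI30 tumours and without female tumour 22, whose clones carry different segment labels), the pooled estimates had the same signs. The difference was 2.274 for *Cldn18* (95% confidence interval 0.60 to 3.95), 1.93 for *Aqp5* (-0.20 to 4.07), 1.74 for *Muc6* (-0.19 to 3.67), 1.41 for *Muc5ac* (-0.37 to 3.19), 1.18 for *A4gnt* (-0.21 to 2.58), 1.08 for *Tff1* (-0.67 to 2.83), 0.37 for *Gkn3* (-0.95 to 1.69) and -0.61 for *Tff2* (-1.85 to 0.62). None of the 8 was called by limma (adjusted p 0.253 to 0.791), 1 having an unadjusted p under 0.05, and 0.280% of 16436 genes were called (46 genes). *Cldn18* was called when female tumour 23 was left out (difference 2.93, limma adjusted p = 0.0433), in a fit that called 215 of 16437 genes. Of 17 fits that each left out 1 tumour, this was the only 1 in which any of the 8 genes was called. Male tumour 19, an SI10 tumour, weighed on the others: without it the difference was 0.66 for *Muc6*, 0.69 for *A4gnt*, 0.80 for *Aqp5*, 0.46 for *Muc5ac*, 1.496 for *Cldn18* and -0.35 for *Gkn3*. Within the female mouse alone *Muc6* had a difference of -0.12 and *Muc5ac* of -0.35, against 3.07 and 2.66 within the male mouse, while *A4gnt* had 0.99 and 1.32. Of the 12 pit cell genes all 12 had estimates above 0 (median 0.83, none called), and in undivided tumours 10 of 12 (median 0.92, none called). Paneth cell genes moved alike, with estimates above 0 in 10 of 10 in divided (median 1.11, none called) and in 10 of 10 in undivided tumours (median 0.74, none called), and their part was not tested. The transcription factor genes *Pdx1*, which marks the duodenum and antrum, and *Osr2* told the segments apart in both sets. *Pdx1* was lower at SI20 (-3.05, SE 0.61, adjusted p = 0.0313 in undivided and -2.58, SE 0.25, adjusted p = 0.000103 in divided tumours, limma), and *Osr2* was higher (4.67, SE 0.90, adjusted p = 0.0278 and 4.64, SE 0.51, adjusted p = 0.000397). In undivided tumours these calls were lost without male tumours 15, 17 and 18, and within the female mouse alone, where 0 genes were called.

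The estimates of the segment difference were unequal in size between the mice, but a difference between the animals was not shown. The interaction was not called for any of the 8 genes (limma, adjusted p 0.942 to 0.9998, 0 of 16511 genes called and 870 at an unadjusted p under 0.05). For *Muc6* in undivided tumours the segment difference was 3.29 in the male and 0.20 in the female mouse, the interaction being 3.08 (95% confidence interval -0.22 to 6.39). For *A4gnt* it was 3.69 and 1.13, the interaction being 2.56 (-1.08 to 6.20).

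The 2 animals themselves differed in many genes, 19.1% of 16511 being called in undivided tumours (3154 genes) and 13.1% of 16436 in divided tumours (2145 genes), but in none of the 8. The largest estimates, male minus female, were -2.49 for *Muc5ac* in undivided tumours (95% confidence interval -4.89 to -0.09, limma adjusted p = 0.134) and -2.05 for *Muc6* in divided tumours (-3.98 to -0.12, adjusted p = 0.145). In each set 1 of the 8 had an unadjusted p under 0.05.

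**Figure D5:**
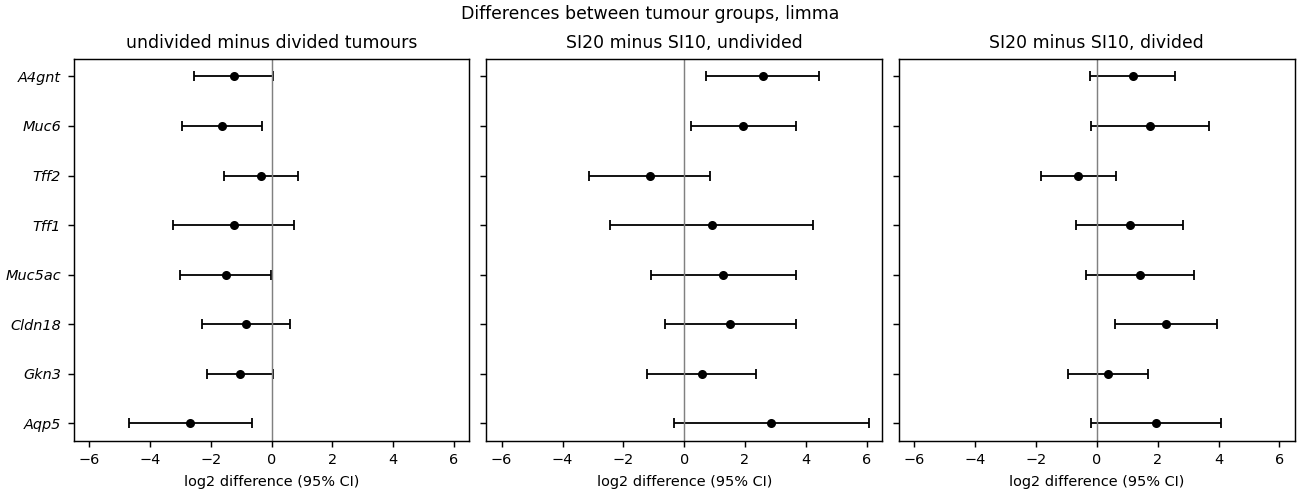
Points give the mean log2 difference of each gene and bars its 95% confidence interval (limma) for undivided minus divided tumours and for SI20 minus SI10 in undivided and in divided tumours. All 8 points lie below 0 on the left, and 7 of 8 lie above 0 in each of the segment panels, *Tff2* being the exception in both.

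The enzymes that build the glycan on which *A4gnt* acts were present in all classes. Of 16 genes of this route, *Galnt1* and *Galnt4* (which start O-glycans), *C1galt1* and its chaperone gene *C1galt1c1*, *Gcnt3* and *Gcnt4* (which branch them), *B4galt1* and the transporter gene *Slc35a3* were at 269 normalised counts or above in every library, *Gcnt4* being the lowest. *B3gnt6*, also on this list, was at a median of 13.6. Between clones none of the other 15 genes was called, where 1.14% of all genes were, and the median log2 difference of the list, *A4gnt* included, was 0.08 against 0.01 over all genes. *Galnt2* was called lower in undivided than in divided tumours (-0.36, SE 0.08, limma adjusted p = 0.0272), and *B3gnt6* was called higher at SI20 in divided tumours (1.63, SE 0.28, adjusted p = 0.0184).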

How the data were processed

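RNA of 63 tumour samples, 40 of them clones dissected apart, was sequenced from a stranded polyA kit. Per the labels and methods, the authors trimmed reads with Trimmomatic 0.39 and quantified Gencode M30 genes with Salmon 1.9.0. Alignment to GRCm39 with STAR 2.7.7a served quality control. The deposited signal is Salmon gene counts scaled between libraries by the authors, one value per gene and library. Whole reads could not be recovered, so depth is unknown and no count test was run. Sums of 26140227 to 45909885 reflect the scaling and give no depth.

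Values were taken as log2(value + 1), so that differences of low genes are understated. Genes with a mean of at least 10 were fitted by linear models with a mean-variance trend (limma 3.58.1 on R 4.3.3) and called at a Benjamini-Hochberg adjusted p under 0.05 over all genes tested. All 8 genes passed this filter in every comparison, so the permutation test planned for genes below it was not needed. Clones of a tumour share its number in the labels and were paired by tumour. Divided tumours entered other fits as the mean of their clones. The labels mark clones only as a and b, and the major and minor classes were taken from the study's source data by exact sample title. *Muc6* was matched by identifier in Gencode M39, a later release on the same build. An adjustment over the 8 clone-agreement tests was planned and not made. The scripts were tested on simulated data.

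The genes, gene lists and tests were chosen with earlier results of these data known. Genes named are the 8, the 10 with the highest Pearson r with *A4gnt* in undivided tumours, and genes of marker lists for gastric, intestinal and stromal cells, transcription factors, mucins, trefoil factors and O-glycan enzymes. *Gast*, *Chia1* and *Dpcr1* are not analysed here. Alternatives covered the pseudocount, filter, scaling, trend, covariates, clones, mice and single tumours.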

Additional observations from a re-analysis of the deposited data

Results flagged for a closer look

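Of 40 groups of 10 libraries (each of the 8 genes in the major and minor clones of each mouse and in the undivided tumours of the female mouse), 12 held a library set apart from the rest by Dixon's test on log2 values, where chance flags about 1 in 20 groups, or 2 here. Undivided tumours of the male mouse are too many for this test.

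The major clone of male tumour 19 was set apart by this test at the low end of its group for 6 genes. It held 4.39 normalised counts of *Muc6* (next lowest 623), 26.1 of *Tff1* (186), 1.45 of *Muc5ac* (170), 371 of *Gkn3* (2231), and a listed 0 of *Cldn18* (122) and of *Aqp5* (256). Its minor clone was set apart at the low end for *Muc6*, at 85.1 (1133), and for *Gkn3*, at 166 (2060).

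*Tff1* was set apart in 3 further libraries. The minor clone of male tumour 28 held 42634 normalised counts against 1479 in the next highest, the minor clone of female tumour 23 held 29871 against 603, and the major clone of female tumour 29 held 8.41 against 88.6 in the next lowest. *Tff2* stood at 1710 in the major clone of male tumour 20, against 229 in the next highest.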

How the results depend on the processing

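Outside the contrast of clones, no call of the 8 genes changed with the pseudocount, filter, scaling or trend. With no replicate block, that is without pairing clones by tumour, 0 of 16428 genes were called between clones, against 188 with it. Between clones 85 genes were called with no filter, 89 without trend, 292 at the same sum per library and 346 after quantile normalization. Undivided against divided tumours gave 20 called genes, but 2 with major clones only, 10 with segment as a covariate, 12 with no covariate, 35 at the same sum, 55 after quantile normalization, 610 with minor clones only and 44 without undivided male tumours 15, 17 and 18 (an alternative chosen after seeing the data). Segment gave 28 in undivided tumours, 18 with a pseudocount of 0.1, 46 in the male and 0 in the female mouse alone, and 0 without tumours 15, 17 and 18; in divided tumours it gave 46, but 12 with minor clones only, 6 in the male and 0 in the female mouse. Leaving out single tumours gave 7 to 71, 5 to 53 and 13 to 215 genes in these 3 comparisons, and 0 to 1 of the 8 genes in the last, *Cldn18* without female tumour 23.

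Estimates that changed sign were all of genes not called. In the female mouse alone the segment difference was -0.67 for *Tff1* and -0.013 for *Gkn3* in undivided tumours, and -0.12 for *Muc6*, -0.72 for *Tff1*, -0.35 for *Muc5ac* and -0.92 for *Gkn3* in divided tumours; in the male mouse alone it was 0.25 for *Tff2* in divided tumours. There *Gkn3* was at -0.042 with major clones only and between -0.35 (without male tumour 19) and 0.69 when single tumours were left out, and *Tff2* at 0.038 with minor clones only. The difference between mice in undivided tumours was -0.060 for *Gkn3* at the same sum per library, and 0.37 for *Muc6* and 0.89 for *Aqp5* without tumours 15, 17 and 18. The cause was not tested. The *A4gnt* difference between clones was 1.37 to 1.68 when single tumours were left out, and 1.91 and 1.27 with pseudocounts of 0.1 and 5. All 8 genes were at 50 normalised counts or above in 24 libraries, and 5 (Spearman's rho) and 6 (means of mouse and segment removed) of the 10 genes most like *A4gnt* were found again. Depth is unknown, so a listed 0 gives no limit on expression.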
